A study of Mus musculus with 34 samples.

Results

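Transcripts of 10 genes of the BCL2 family were followed in 3 mouse colorectal cancer cell lines that carry mutant Braf, with and without the BRAF inhibitor encorafenib. The genes were picked by symbol, with earlier results of these data known, so counts over them are a description and no independent evidence. They were 6 BH3-only genes (Bmf, Bcl2l11, Bid, Bik, Pmaip1 and Bbc3), the effector gene Bax, and 3 pro-survival genes (Mcl1, Bcl2l1 and Bcl2l2). All 10 were among the 14107 genes of the count table.

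The BCL2 family decides whether the mitochondrial outer membrane stays intact. Pro-survival proteins such as MCL1 and BCL-XL hold the effectors BAX and BAK in check, and BH3-only proteins bind the pro-survival proteins or the effectors, so that BAX and BAK form pores, cytochrome c leaves the mitochondria and caspases are activated. In many tumor cells driven by mutant BRAF, ERK signaling restrains the transcription of Bcl2l11 (encoding BIM) and Bmf and marks the BIM protein for degradation, and loss of either gene can blunt the killing of such cells by inhibitors of the pathway.

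NaJa-D, NaJa-F and NaJa-G are lines that grew out of peritoneal lavages of 3 mice that had received 1 colon organoid line in the colon. All 12 groups share the strain background C57BL/6N and the genotype Villin-CreERT2, Braf V600E/+, Trp53 R172H and deleted Apc, where Villin-CreERT2 is a tamoxifen-inducible Cre of the gut epithelium. The study describes the lines as having lost the wild-type Trp53 allele and, over passages, the cells of the host. Cells received 0.5 µM encorafenib or DMSO, its solvent, with fresh medium, renewed during the longer treatment, and were harvested for RNA after 1 or 5 days (called day 1 and day 5), which gives 4 groups a line. Cells for both times had been plated together. Each line is a single culture from 1 mouse, and no untreated sample at the start was analysed here. The DMSO day 5 cells had been longer in culture and in DMSO than those of day 1. Whatever else changed over these days cannot be told apart from time. The study reports that confluence was checked and found alike before cells were harvested.

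There were 34 libraries, 3 in each of 10 groups and 2 in each of the others (NaJa-G DMSO day 5, NaJa-F encorafenib day 5), with 46007050 to 80121299 counts each. Nothing in the labels says that replicates were separate cultures, so p-values measure the spread between these libraries, which may be technical. The library NaJa-D encorafenib day 1 replicate 3 stood apart from its group. Across genes its log2 CPM (CPM, each count divided by the TMM-scaled library total in units of 1e6) correlated with those of the other libraries at 0.988, while these correlated with each other at 0.997, and the libraries of NaJa-G DMSO day 5 correlated at 0.989. To a lesser degree, NaJa-G DMSO day 1 replicate 1 and NaJa-F DMSO day 1 replicate 3 also differed from their groups. They correlated with them at 0.992 to 0.993 and at 0.993 to 0.994, while the other libraries of each group correlated at 0.997. Replicate 3 of NaJa-D DMSO day 1, so titled, has another line in its cell line field and was kept under its title, since it correlated at 0.995 with its group and at most at 0.920 with the NaJa-G libraries of DMSO day 1. Of 4 ERK target genes (Dusp6, Spry4, Etv4 and Etv5), all 4 were lower with encorafenib in each line at day 1, and at day 5 the number was 3 for NaJa-D, 3 for NaJa-F and 4 for NaJa-G. By the test given below, 21.2%, 12% and 28.7% of all genes were lower at day 1 (NaJa-D, NaJa-F, NaJa-G). At day 5 the shares were 14.7%, 8.5% and 24.7%. All 7 epithelial markers listed were in the table, and Epcam, Cdh1, Krt8 and Krt18 had group means of at least 66.2 CPM everywhere. Single levels of the others, Krt20, Vil1 and Cdx2, are not given here. In DMSO, however, NaJa-G had less of 6 of the 7 when set against NaJa-D (median log2 difference -1.37, with Krt18 at 0.0035), and their summed level in DMSO was 1966 to 3251 CPM in NaJa-G libraries and 4109 to 5268 CPM in those of NaJa-D. Of all genes, 67.4% differed between these lines in either direction. NaJa-G also had more of the mesenchymal genes Vim, Zeb1 and Cdh2, at a median of 4.50 against NaJa-D. Of the markers of other cells, Ptprc, Adgre1, Cd3e, Ms4a1, Pecam1, Cdh5, Thy1 and Wt1 were not in the table. Cd68, the leukocyte marker present, lay between 3.32 and 7.26 CPM, rose with encorafenib in NaJa-G at day 5 (0.64) and fell with time in NaJa-D by 0.65. Kdr, the endothelial marker present, lay between 0.164 and 1.36 CPM, was higher in NaJa-F and NaJa-G than in NaJa-D (1.40 and 2.13) and fell with encorafenib in NaJa-G at day 1 by 0.86. In bulk RNA, fewer cells of a kind and less RNA per cell cannot be told apart, and counts per gene show neither the splice forms of Bcl2l11, Mcl1 and Bcl2l1 nor any protein.

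Per kilobase of exon, the pro-survival genes Bcl2l1 and Mcl1 and the effector Bax were the most abundant members in DMSO at day 1. Bcl2l1, which encodes BCL-XL, had 55.8 ± 2.3 CPM per kb in NaJa-D, NaJa-F had 62.8 ± 2.91 and NaJa-G 53.7 ± 6.62 (SD, n = 3 each). Mcl1 had 36.7 ± 1.5, 51.3 ± 0.44 and 55.4 ± 1 CPM per kb, and Bax had 33.1 ± 0.471, 34.3 ± 0.857 and 49.8 ± 2.49 CPM per kb. In NaJa-G the spread of Bcl2l1 reached both Mcl1 and Bax, so its place was open there while Mcl1 lay above Bax, whereas in NaJa-D Bcl2l1 was clear of the other members. Pmaip1 (7.36 to 14.4 CPM per kb over the lines) and Bid (7.37 to 8.47) followed, then Bcl2l11 (3.62 to 4.83) and Bcl2l2 (2.14 to 2.83). Bbc3 (0.835 to 1.18), Bmf (0.492 to 0.997) and Bik (0.125 to 0.475) were the lowest, and the SDs of Bbc3 and Bmf overlapped in NaJa-D, as did those of Pmaip1 and Bid in NaJa-G. For Bik, the lowest member, single libraries held 8 to 162 reads.

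**Figure D1:**
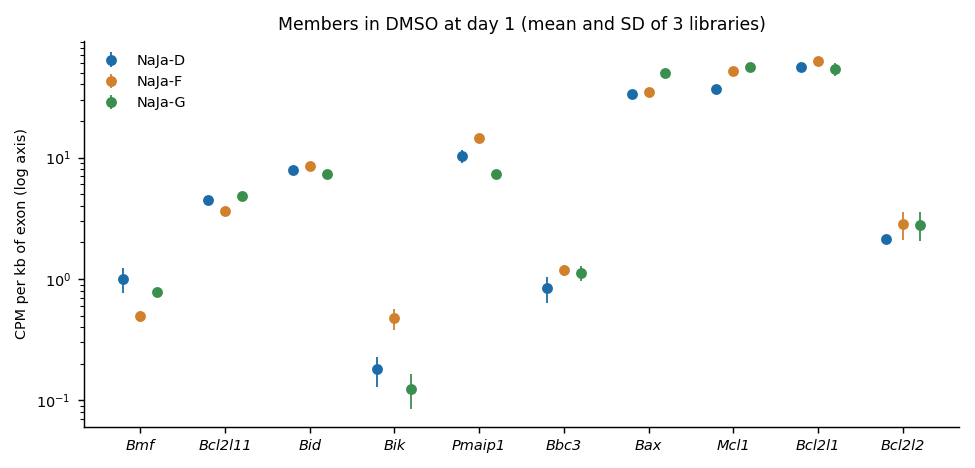
Levels of the 10 members in DMSO at day 1 in CPM per kilobase of exon on a log axis (points, mean; bars, SD of 3 libraries; colors, the lines). Bcl2l1, Mcl1 and Bax lie at 33.1 or more in every line, and Bik lies at 0.475 or less.

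Encorafenib raised a set of BH3-only genes in every line, together with smaller rises of Mcl1. A gene was called when its limma p (voom weights, two-sided), adjusted by Benjamini and Hochberg across the 14107 genes, was below 0.01, and each treated group was set against DMSO of the same day. In NaJa-D, 6 of 10 members rose at day 1 and 4 at day 5, and none fell, where 23.7% and 18.3% of all genes were called higher and 21.2% and 14.7% lower. In NaJa-F, 5 rose at day 1 and 4 at day 5, and none fell, where 17.5% and 9.7% of all genes were called higher and 12% and 8.5% lower. In NaJa-G, 7 rose and 1 fell at day 1, where 35.3% and 28.7% of all genes were called higher and lower, and 3 rose and 2 fell at day 5, where the shares were 28.5% and 24.7%. The day 5 counts in NaJa-G thus lay near the shares of all genes. The median log2 fold change of the 10 members was 0.62 and 0.31 for NaJa-D (day 1, then day 5), 0.14 and 0.24 for NaJa-F, and 0.81 and 0.11 for NaJa-G, against medians between -0.02 and 0.04 over all genes. In NaJa-D at day 1 the count was 3 when the spread was taken from the compared groups alone. That fit, named in the same way below, also took scaling and weights from those groups alone. It called fewer of all genes too, as given near the end.

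Members also changed between the days in the same DMSO cells that served as controls. From day 1 to day 5 in DMSO, 5 members rose and none fell in NaJa-D, where 13.7% of all genes were called higher and 15.3% lower. In NaJa-F 3 rose and none fell, where the shares were 9.73% and 7.01%. In NaJa-G 3 rose and 2 fell, where they were 17.2% and 16.8%. The count was 3 in NaJa-D without DMSO day 1 replicate 3 or without DMSO day 5 replicate 1, 3 in NaJa-G without DMSO day 5 replicate 1, and 2 in NaJa-G when the spread came from the compared groups alone. In that last fit fewer of all genes were called too, as given near the end. The day 5 drug comparison and the time comparison of a line share its DMSO day 5 libraries, and the day 1 comparison and the time comparison share those of day 1, so their values are given side by side and not as independent results.

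**Figure D2:**
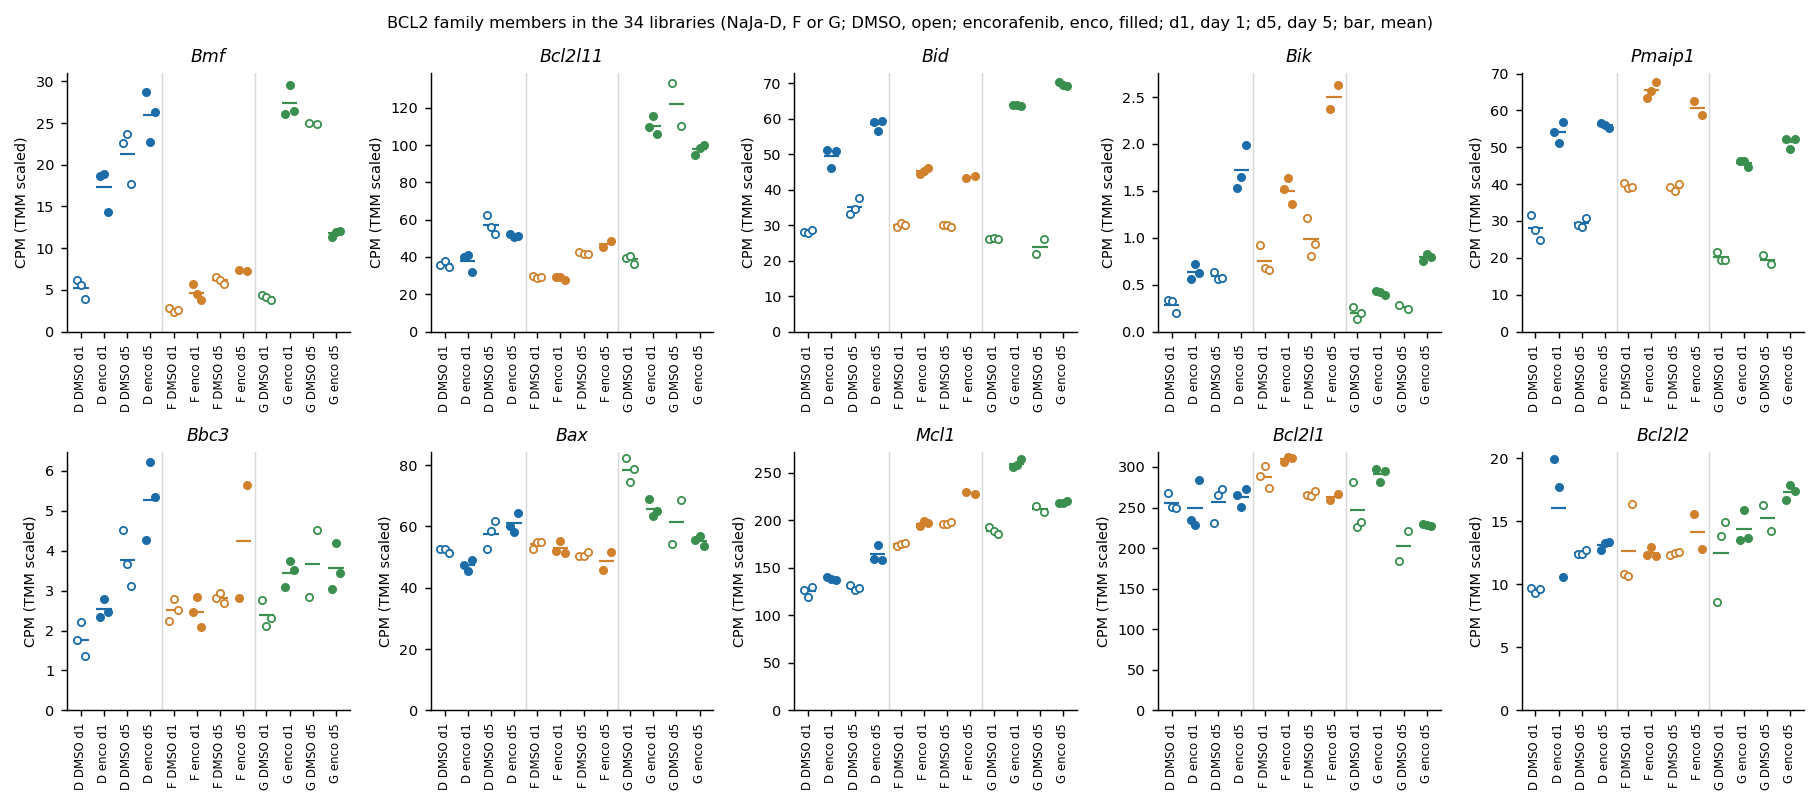
CPM of each member in all 34 libraries (one panel a gene, axis from 0; groups ordered by line, day and treatment; open, DMSO; filled, encorafenib; bar, group mean). Bid, Pmaip1 and Bik lie higher with encorafenib than in DMSO of the same day in every line, whereas Bmf in NaJa-G is high in encorafenib at day 1 and in DMSO at day 5.

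**Figure D3:**
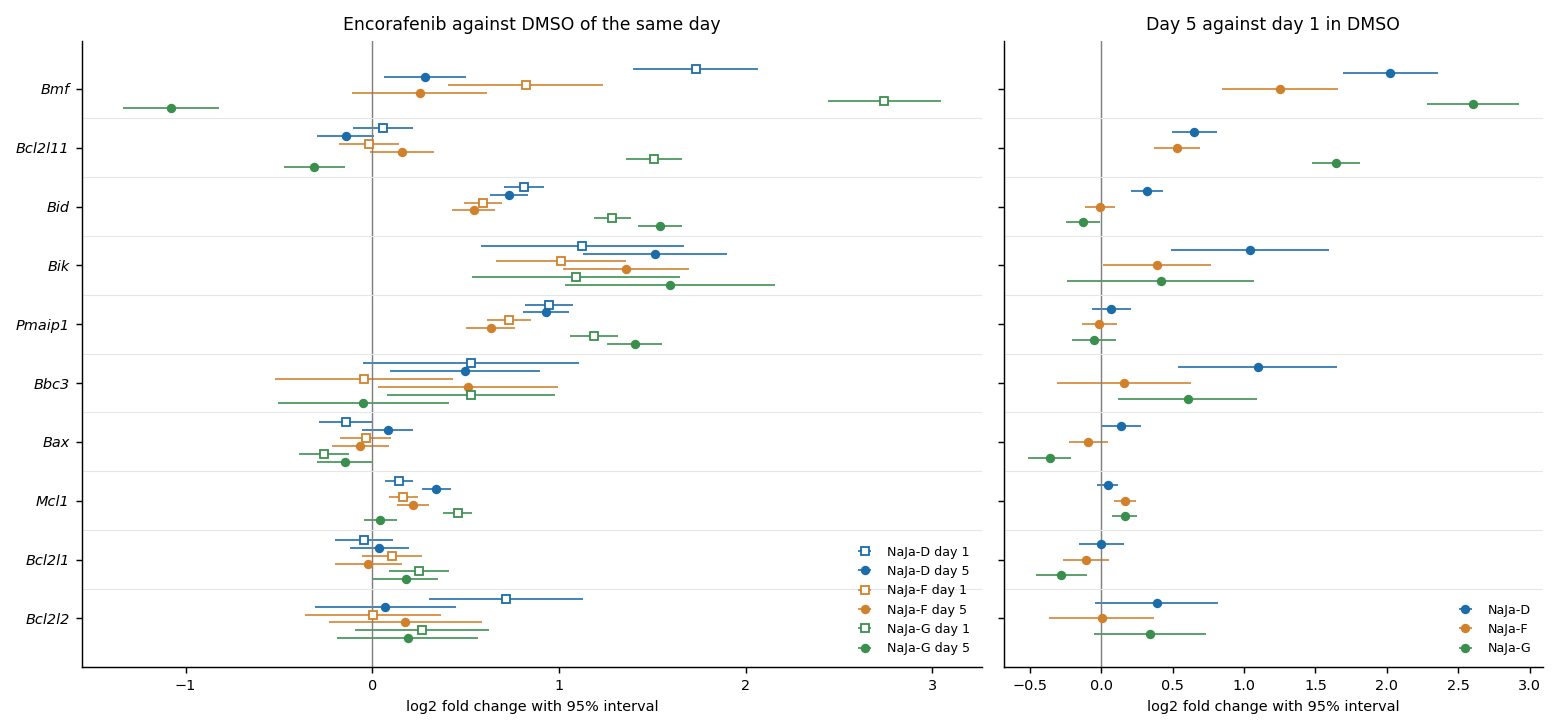
Log2 fold changes with 95% intervals for encorafenib against DMSO (left; open squares, day 1; filled circles, day 5) and for day 5 against day 1 in DMSO (right), by member and line. The Bmf intervals at day 5 lie below those of day 1 in NaJa-D and NaJa-G, and the Bid and Pmaip1 intervals lie above 0 at both days in all lines.

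Bmf, which encodes a BH3-only protein linked to the cytoskeleton and to detachment from matrix, showed both patterns most clearly. Bmf (ENSMUSG00000040093, chromosome 2, 118528757 to 118549687, minus strand, GRCm38) had 4.33, 4.14 and 3.79 CPM in the 3 DMSO libraries of NaJa-G at day 1 and 26.1, 29.6 and 26.5 CPM with encorafenib. At day 5 it had 25 and 24.9 CPM in the 2 DMSO libraries and 11.4, 11.9 and 12.1 CPM with encorafenib. The groups did not overlap on either day, and the order of the treatments was opposite. In NaJa-G, Bmf rose with encorafenib at day 1 by a log2 fold change of 2.74 (SE 0.15, adjusted p = 8.55e-16), rose over time in DMSO by 2.60 (SE 0.16, adjusted p = 2.11e-13) and was lower with encorafenib than in DMSO at day 5, at -1.08 (SE 0.12, adjusted p = 1.81e-08). The response at day 5 minus that at day 1 was -3.82 (SE 0.19, adjusted p = 3.24e-15). Set against the day 1 DMSO libraries, which changes treatment and time together, day 5 encorafenib stood at 1.52 (adjusted p = 8.81e-10).

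In NaJa-D, Bmf had 6.18, 5.63 and 3.91 CPM in DMSO and 18.7, 18.9 and 14.3 CPM with encorafenib at day 1. At day 5 the values were 22.6, 23.7 and 17.7 CPM in DMSO and 28.7, 22.8 and 26.4 CPM with encorafenib. The treatments were apart at day 1 and overlapped at day 5, when both exceeded the DMSO cells of day 1. Bmf rose by 1.73 (SE 0.16, adjusted p = 8.05e-10) with encorafenib at day 1 and by 2.02 (SE 0.16, adjusted p = 1.39e-10) with time in DMSO, and the day 5 difference was 0.28 (adjusted p = 0.0345), which missed the threshold. The response changed between the days by -1.45 (SE 0.20, adjusted p = 7.01e-06), and by -1.55 without the library that stood apart. In NaJa-F, where Bmf was lowest, it had 2.88, 2.35 and 2.53 CPM in DMSO and 5.65, 4.49 and 3.73 CPM with encorafenib at day 1, which did not overlap. It rose by 0.82 (SE 0.20, adjusted p = 0.00178) at day 1 and by 1.25 (SE 0.20, adjusted p = 2.55e-05) with time in DMSO, and the day 5 difference was 0.25 (adjusted p = 0.315), with 6.56, 6.15 and 5.68 CPM in DMSO and 7.39 and 7.21 CPM with encorafenib. Without NaJa-F encorafenib day 1 replicate 1 the day 1 value was 0.67 (adjusted p = 0.016) and without DMSO replicate 2 it was 0.75 (adjusted p = 0.0119), and neither passed the threshold.

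**Figure D4:**
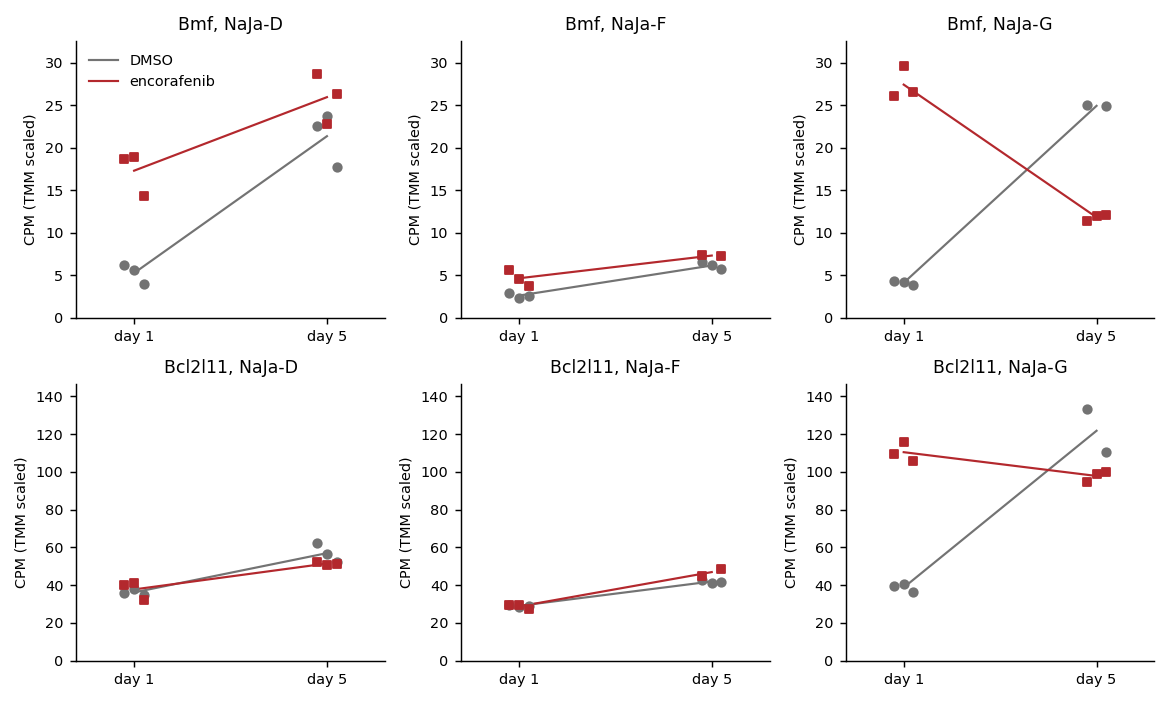
CPM of Bmf (top) and Bcl2l11 (bottom) in each library at day 1 and day 5 for the 3 lines (circles, DMSO; squares, encorafenib; lines join group means; axes from 0). In NaJa-G the DMSO means climb from 4.09 to 24.9 for Bmf and from 38.8 to 122 for Bcl2l11 and end above the encorafenib means of 11.8 and 97.9.

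Bcl2l11, which encodes BIM, a BH3-only protein that binds all main pro-survival members, responded to encorafenib in NaJa-G at day 1 and rose with time in every line. Bcl2l11 (ENSMUSG00000027381, chromosome 2, 128126038 to 128162547, plus strand, GRCm38) had 39.5, 40.4 and 36.4 CPM in NaJa-G DMSO and 110, 116 and 106 CPM with encorafenib at day 1. At day 5 it had 133 and 110 CPM in DMSO and 94.9, 98.6 and 100 CPM with encorafenib. The drug-treated libraries of day 1 thus lay far above their controls, and those of day 5 lay just below theirs. The log2 fold changes in NaJa-G were 1.51 (SE 0.07, adjusted p = 7.44e-17) for encorafenib at day 1, 1.64 (SE 0.08, adjusted p = 3.79e-15) for time in DMSO and -0.31 (SE 0.08, adjusted p = 0.0013) for encorafenib at day 5. The fall at day 5 rested on DMSO replicate 1, without which it was -0.18 (adjusted p = 0.104). The response differed between the days by -1.82 (SE 0.11, adjusted p = 9.56e-14).

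In NaJa-D, Bcl2l11 had 34.9 to 38.1 CPM in DMSO and 32.2 to 41.2 CPM with encorafenib at day 1, and 52.1 to 62.6 and 50.8 to 52.5 CPM at day 5. In NaJa-F it had 28.5 to 29.7 and 27.5 to 29.4 CPM at day 1, and 41.4 to 42.8 and 45.1 to 48.8 CPM at day 5. In both lines the treatments lay close together on each day, while the day 5 libraries were all above those of day 1. The 4 drug comparisons gave log2 fold changes of 0.06, -0.14, -0.02 and 0.16 (adjusted p = 0.117 or higher), and the rise with time in DMSO was 0.65 (SE 0.08, adjusted p = 1.78e-07) in NaJa-D and 0.53 (SE 0.08, adjusted p = 8.93e-06) in NaJa-F. The day 1 response of NaJa-G exceeded that of NaJa-D by 1.45 (adjusted p = 1.49e-11) and that of NaJa-F by 1.52 (adjusted p = 5.17e-12).

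The promoters of Bmf and Bcl2l11, whose transcripts rose with time in all lines, and of Bid, which rose with encorafenib at both days, are shown with motif matches. Windows reach from 250 bases before to 50 bases after a transcript start and come from RefSeq on GRCm38.p6, and 8 of the 10 members had at least 1 window there (15 windows, those of Bik and Pmaip1 not among them). The letters searched on both strands were GTAAACA, a core bound by FOXO factors, CCGGAAG, a core of ETS factors, TGACTCA, an AP-1 site, TGACGTC, a CRE core, and CACGTG, an E-box, none of which overlap each other in the windows shown. Capitals mark the matches.
Bmf, chr2:118549637-118549936, minus strand: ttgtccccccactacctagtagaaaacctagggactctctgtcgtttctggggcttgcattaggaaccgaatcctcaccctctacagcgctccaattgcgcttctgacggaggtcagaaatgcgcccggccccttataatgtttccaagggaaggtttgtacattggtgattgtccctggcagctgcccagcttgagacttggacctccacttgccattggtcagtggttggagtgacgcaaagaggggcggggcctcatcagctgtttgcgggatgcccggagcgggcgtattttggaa
Bcl2l11, chr2:128125788-128126087, plus strand: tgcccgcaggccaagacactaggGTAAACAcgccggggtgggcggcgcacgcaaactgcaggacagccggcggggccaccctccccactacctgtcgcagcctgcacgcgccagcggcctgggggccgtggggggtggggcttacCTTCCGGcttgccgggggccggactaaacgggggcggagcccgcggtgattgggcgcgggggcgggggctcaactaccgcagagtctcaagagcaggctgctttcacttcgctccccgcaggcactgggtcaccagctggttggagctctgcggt
Bid, chr6:120916775-120917074, minus strand: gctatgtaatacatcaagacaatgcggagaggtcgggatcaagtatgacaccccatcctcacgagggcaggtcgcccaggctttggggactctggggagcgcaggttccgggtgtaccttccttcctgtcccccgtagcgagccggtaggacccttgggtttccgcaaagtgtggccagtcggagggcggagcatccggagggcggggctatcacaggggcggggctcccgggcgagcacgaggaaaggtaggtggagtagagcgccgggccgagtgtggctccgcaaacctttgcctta
The Bcl2l11 window, the first of 2, held GTAAACA at position -227 from the start and the reverse complement of CCGGAAG at -105. Of all 32851 windows, 3.65% held GTAAACA, 8.86% CCGGAAG, 5.2% TGACTCA, 3.21% TGACGTC and 7.15% CACGTG. None of these letters occurred in the windows of Bmf (3 windows) or Bid, which says only that they are not in these stretches. Among the other members, CCGGAAG occurred in Mcl1 at -63 and in 1 of 3 windows of Bcl2l1 at 35, GTAAACA in 1 window of Bbc3 at -167 on the other strand, and CACGTG in Bax at -9 and 36 and in 1 window of Bbc3 at -64. G and C made up 71% of the Bcl2l11 window, 55.3% of the Bmf window and 63.3% of the Bid window, against a median of 52.7% over all windows.

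Bid rose with encorafenib in every line at both days. Bid encodes a BH3-only protein that caspase-8 cleaves to an active form, linking death receptors to mitochondria. In NaJa-G, Bid (ENSMUSG00000004446, chromosome 6, 120891930 to 120916853, minus strand, GRCm38) had 26.2, 26.3 and 26 CPM in DMSO and 63.9, 64 and 63.6 CPM with encorafenib at day 1, and 22 and 26 CPM against 70.4, 69.5 and 69.4 CPM at day 5. The treated libraries lay far above every control, and the controls of the days lay close together. The log2 fold change was 1.29 (SE 0.05, adjusted p = 3.93e-19) at day 1 and 1.54 (SE 0.06, adjusted p = 4.29e-19) at day 5. In NaJa-D, Bid had 27.8 to 28.6 CPM in DMSO and 46.1 to 51.3 CPM with encorafenib at day 1, and 33.3 to 37.6 and 56.6 to 59.5 CPM at day 5, with log2 fold changes of 0.81 (SE 0.05, adjusted p = 3.49e-13) and 0.73 (SE 0.05, adjusted p = 1e-12). In NaJa-F it had 29.5 to 30.7 and 44.5 to 46.2 CPM at day 1, and 29.6 to 30.1 and 43.4 to 43.8 CPM at day 5, with 0.59 (SE 0.05, adjusted p = 9.91e-11) and 0.54 (SE 0.06, adjusted p = 1.11e-08). No treated library of Bid overlapped its controls. Over time in DMSO, Bid rose by 0.32 (SE 0.05, adjusted p = 2.57e-05) in NaJa-D, and its values were -0.01 and -0.13 in NaJa-F and NaJa-G (adjusted p = 0.944 and 0.0808). Exons of Bid overlap those of Bcl2l13 on the opposite strand over 17.7% of their length, and whether the counting used strand is not given in the sources used here.

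Pmaip1, which encodes NOXA, a BH3-only protein that binds MCL1 and promotes its degradation, rose in the same 6 comparisons. Pmaip1 (ENSMUSG00000024521, chromosome 18) had 21.7, 19.3 and 19.4 CPM in NaJa-G DMSO and 46.4, 46.4 and 44.5 CPM with encorafenib at day 1, and 20.7 and 18.2 CPM against 52.3, 49.5 and 52.3 CPM at day 5. In NaJa-D it had 25 to 31.6 CPM in DMSO and 51.2 to 56.8 CPM with encorafenib at day 1, and 28.3 to 30.9 and 55.3 to 56.7 CPM at day 5. In NaJa-F it had 38.8 to 40.2 and 63.4 to 67.6 CPM at day 1, and 38.1 to 39.9 and 58.9 to 62.4 CPM at day 5. The controls of the days overlapped within each line, and no treated library overlapped them. The log2 fold changes at day 1 and day 5 were 0.95 and 0.93 (NaJa-D), 0.73 and 0.63 (NaJa-F), and 1.19 and 1.41 (NaJa-G), with SE 0.06 to 0.07 and adjusted p = 1.07e-08 or lower. For time in DMSO the values were 0.07, -0.01 and -0.05 (adjusted p = 0.417 or higher). The response in NaJa-G exceeded that in NaJa-F by 0.45 at day 1 (adjusted p = 7.23e-05) and by 0.77 at day 5 (adjusted p = 2.76e-07), and that in NaJa-D by 0.48 at day 5 (adjusted p = 0.00024).

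Bik, an epithelial BH3-only gene whose protein sits at the endoplasmic reticulum, rose in all 6 drug comparisons from a very low level. Bik (ENSMUSG00000016758, chromosome 15, 83526862 to 83544634, plus strand, GRCm38) had 0.335, 0.328 and 0.194 CPM in NaJa-D DMSO and 0.557, 0.719 and 0.62 CPM with encorafenib at day 1, and 0.638, 0.562 and 0.57 against 1.53, 1.65 and 1.99 CPM at day 5. In NaJa-F, its highest line, it had 0.658 to 0.926 CPM in DMSO and 1.35 to 1.63 CPM with encorafenib at day 1, and 0.809 to 1.21 and 2.38 to 2.63 CPM at day 5. In NaJa-G it had 0.134 to 0.262 and 0.384 to 0.433 CPM at day 1, and 0.236 to 0.284 and 0.754 to 0.827 CPM at day 5. The treatments did not overlap in any of these pairs. The log2 fold changes at day 1 and day 5 were 1.12 and 1.51 (NaJa-D), 1.01 and 1.36 (NaJa-F), and 1.09 and 1.60 (NaJa-G), with SE 0.16 to 0.27 and adjusted p = 0.000791 or lower. At day 1 the call was lost without DMSO replicate 3 in NaJa-D (0.86, adjusted p = 0.0139) and without DMSO replicate 2 in NaJa-G (0.83, adjusted p = 0.0139), and it was lost in both lines when the spread came from the compared groups alone (adjusted p = 0.0167 and 0.014). Between the days in DMSO, Bik rose by 1.04 in NaJa-D (SE 0.27, adjusted p = 0.00276), a call lost without DMSO day 5 replicate 1 (0.98, adjusted p = 0.0117), without DMSO day 1 replicate 3 (0.80, adjusted p = 0.0338) and with the spread of the compared groups alone (adjusted p = 0.011). It had 0.39 and 0.42 in NaJa-F and NaJa-G (adjusted p = 0.116 and 0.306).

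Bbc3, which encodes PUMA, a p53 target that binds all main pro-survival proteins, passed the test in no drug comparison. Bbc3 (ENSMUSG00000002083, chromosome 7, 16308393 to 16318205, plus strand, GRCm38) had log2 fold changes with encorafenib between -0.05 and 0.53 (adjusted p = 0.0331 or higher). It rose with time in DMSO in NaJa-D, from 1.76, 2.21 and 1.36 CPM to 4.52, 3.65 and 3.12 CPM, without overlap. That rise was 1.09 (SE 0.27, adjusted p = 0.00184), and it was lost without DMSO day 1 replicate 1 (1.09, adjusted p = 0.0102), DMSO day 5 replicate 1 (0.94, adjusted p = 0.0138) or DMSO day 1 replicate 3 (0.92, adjusted p = 0.019). In NaJa-F encorafenib day 5 the 2 libraries differed, at 2.82 and 5.63 CPM, against 2.7 to 2.95 CPM in DMSO. The value there was 0.51, and it was -0.01 without replicate 2 (adjusted p = 0.978) and 0.99 without replicate 1 (adjusted p = 0.00174), so 1 library decided it.

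Bax, the effector that forms pores in the mitochondrial outer membrane, moved little and downward where it was called. Bax (ENSMUSG00000003873, chromosome 7, 45461697 to 45466898, minus strand, GRCm38) had 82.4, 74.5 and 78.8 CPM in NaJa-G DMSO and 68.9, 63.4 and 65 CPM with encorafenib at day 1, with no overlap. It fell by 0.26 on the log2 scale (SE 0.07, adjusted p = 0.000985). At day 5 its values of 54.2 and 68.6 CPM in DMSO spanned those of 53.5 to 56.8 CPM with encorafenib. The day 5 value was -0.15 (adjusted p = 0.0875), and it was -0.32 without DMSO replicate 1 (adjusted p = 0.000938) and 0.02 without DMSO replicate 3 (adjusted p = 0.814). In DMSO it fell between the days by 0.36 on the log2 scale in NaJa-G (SE 0.07, adjusted p = 0.000202), and by 0.19 without DMSO day 5 replicate 1 (adjusted p = 0.0495), which ended the call, as did taking the spread from the compared groups alone (adjusted p = 0.0607). Exons of Bax share 12.2% of their length with those of Gm45808 on the same strand, a gene that was not in the table. In NaJa-D and NaJa-F, Bax lay between 45.4 and 64.3 CPM in all libraries and passed no test, with log2 values of -0.14 to 0.14 over drug and time.

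Among the pro-survival members, Mcl1 rose with encorafenib in 5 of 6 comparisons. Its product is a short-lived protein that restrains BAK, BIM and NOXA. Mcl1 (ENSMUSG00000038612, chromosome 3, 95658788 to 95663176, plus strand, GRCm38) had 193, 189 and 186 CPM in NaJa-G DMSO and 257, 258 and 265 CPM with encorafenib at day 1, and 216 and 209 against 218, 218 and 221 CPM at day 5. The day 1 groups were well apart, and at day 5 the treated libraries lay just above the higher control. The log2 fold change was 0.46 at day 1 (SE 0.04, adjusted p = 1.34e-11) and 0.04 at day 5 (adjusted p = 0.381), and the difference of -0.41 between the days passed the test (SE 0.06, adjusted p = 1.17e-06). In NaJa-D, Mcl1 had 120 to 129 CPM in DMSO and 137 to 140 CPM with encorafenib at day 1, and 127 to 132 and 159 to 175 CPM at day 5, with 0.15 (SE 0.04, adjusted p = 0.00149) and 0.34 (SE 0.04, adjusted p = 1.23e-08). In NaJa-F it had 174 to 177 and 194 to 200 CPM at day 1, and 196 to 199 and 228 to 230 CPM at day 5, with 0.17 (SE 0.04, adjusted p = 0.000763) and 0.22 (SE 0.04, adjusted p = 0.000214). The day 1 call in NaJa-D was lost without the library that stood apart (0.12, adjusted p = 0.0125), without DMSO replicate 1 (0.13, adjusted p = 0.0105), without DMSO replicate 2 (0.11, adjusted p = 0.0197) and with the spread of the compared groups alone (0.12, adjusted p = 0.172).

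Mcl1 also rose with time in DMSO, by 0.17 in NaJa-F (SE 0.04, adjusted p = 0.00137) and by 0.17 in NaJa-G (SE 0.04, adjusted p = 0.00213), and the value was 0.05 in NaJa-D (adjusted p = 0.343). The NaJa-F call was lost without any 1 of the 3 DMSO day 5 libraries (0.14 to 0.15, adjusted p = 0.0126, 0.0136 and 0.0187). The NaJa-G call was lost without DMSO day 1 replicate 3 (0.15, adjusted p = 0.0107), without DMSO day 5 replicate 1 (0.14, adjusted p = 0.0376) and with the spread of the compared groups alone (0.18, adjusted p = 0.086).

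Bcl2l1 was nearly level. Bcl2l1 (ENSMUSG00000007659, chromosome 2, 152780668 to 152831728, minus strand, GRCm38) lay between 229 and 312 CPM in every library of NaJa-D and NaJa-F, and its log2 fold changes there were -0.04 to 0.11 with encorafenib and -0.11 to 0.0016 with time (adjusted p = 0.286 or higher). In NaJa-G it had 281, 226 and 232 CPM in DMSO and 297, 282 and 295 CPM with encorafenib at day 1, so that the lowest treated library was just above the highest control. It rose by 0.25 (SE 0.08, adjusted p = 0.00549), and the call was lost without 4 of the 6 libraries in turn, namely DMSO replicate 2 (0.19, adjusted p = 0.0483) and replicate 3 (0.21, adjusted p = 0.0354) and encorafenib replicate 1 (0.24, adjusted p = 0.0209) and replicate 3 (0.24, adjusted p = 0.0189), and with the spread of the compared groups alone (0.20, adjusted p = 0.0778). Between the days in NaJa-G DMSO it fell by 0.28 on the log2 scale (SE 0.09, adjusted p = 0.00954), and it was -0.18 without DMSO day 1 replicate 1 (adjusted p = 0.0857) and -0.15 without DMSO day 5 replicate 1 (adjusted p = 0.294). The time call in NaJa-G was also lost with edgeR (adjusted p = 0.0105), RLE scaling (0.0138), library size scaling (0.0162) and the spread of the compared groups (0.147).

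Bcl2l2, which encodes the pro-survival protein BCL-W, split within groups. Bcl2l2 (ENSMUSG00000089682, chromosome 14, 54883377 to 54888234, plus strand, GRCm38) had 9.72, 9.31 and 9.61 CPM in NaJa-D DMSO and 19.9, 17.7 and 10.6 CPM with encorafenib at day 1, where the third value belongs to the library that stood apart. The log2 fold change was 0.72 (SE 0.20, adjusted p = 0.00354) and 0.95 without that library (adjusted p = 2.78e-05). It did not pass the test without any 1 of the other 5 libraries, at 0.71, 0.70 and 0.69 without DMSO replicates 1 to 3 (adjusted p = 0.0159, 0.0138 and 0.0123) and at 0.53 and 0.63 without encorafenib replicates 1 and 2 (adjusted p = 0.0369 and 0.0179). The other 5 drug comparisons gave 0.01 to 0.26 and the time comparisons 0.0024 to 0.39 (adjusted p = 0.139 or higher). Taking the spread from the compared groups alone also ended the NaJa-D call (adjusted p = 0.0388). Exons of Bcl2l2 share 13.3% of their length with those of Gm20521 on the same strand, a gene that was not in the table. In NaJa-F DMSO day 1 its libraries had 10.8, 10.7 and 16.4 CPM, and in NaJa-G DMSO day 1 they had 8.61, 13.9 and 15 CPM. The 16.4 CPM (replicate 3) and the 8.61 CPM (replicate 1) belong to libraries that also differed from their groups across genes.

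The balance of the members was described by the mean log2 CPM of the 7 pro-death genes minus that of the 3 pro-survival genes in each library, with no test, since the members were given. In NaJa-D the balance was -2.93 ± 0.19 in DMSO and -2.48 ± 0.09 with encorafenib at day 1, and -2.32 ± 0.10 and -1.92 ± 0.04 at day 5 (SD, n = 3 each). In NaJa-F it was -3.10 ± 0.13 and -2.77 ± 0.08 at day 1 (n = 3), and -2.82 ± 0.06 (n = 3) and -2.46 ± 0.19 (n = 2) at day 5. In NaJa-G it was -3.26 ± 0.19 and -2.43 ± 0.02 at day 1 (n = 3), and -2.67 ± 0.05 (n = 2) and -2.39 ± 0.03 (n = 3) at day 5. The group means with encorafenib lay nearer the pro-death genes by 0.45 and 0.40 in NaJa-D (day 1, then day 5), by 0.34 and 0.35 in NaJa-F and by 0.82 and 0.28 in NaJa-G, and those of day 5 in DMSO lay nearer them than those of day 1 by 0.61, 0.29 and 0.59. Libraries did not overlap in any of these 9 comparisons. In NaJa-G at day 1 the pro-death mean was 1.14 higher and the pro-survival mean 0.31 higher. Among its DMSO libraries of that day, replicate 1 had a balance of -3.04, and the others had -3.38 and -3.36. Over both days in DMSO the balance of NaJa-F and of NaJa-G minus that of NaJa-D was -0.34 in each case, with overlapping libraries (on the scale of sums described next, -0.32 and -0.022, and 0.30 for NaJa-G minus NaJa-F).

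Because the log2 mean weighs a rare transcript as much as an abundant one, the sums of levels per kilobase were set beside it. The summed pro-death level was below the summed pro-survival level in every library, at log2 ratios of group means between -0.91 (NaJa-F DMSO day 5) and -0.26 (encorafenib at day 5 in NaJa-D). Bax alone made up 38.9% to 69.8% of the pro-death sum and Mcl1 38.8% to 56.6% of the pro-survival sum. On this scale the difference between encorafenib and DMSO was 0.29 and 0.19 for NaJa-D (day 1, then day 5), 0.16 and 0.16 for NaJa-F, and 0.094 and 0.17 for NaJa-G. Of the drug differences, that of NaJa-G at day 1 was thus the smallest on this scale (0.094), while it was the largest by log2 means (0.82). The difference between the days in DMSO was 0.26 for NaJa-D, -0.014 for NaJa-F and 0.089 for NaJa-G. The rise in NaJa-F was thus absent on this scale, where its libraries of the days overlapped. Markers of fibroblasts, of which 4 of 5 were in the table, rose with encorafenib in NaJa-G, as the balance did. With time in DMSO these markers fell there, while the balance rose. Their summed level was 51.2 to 70.5 CPM in DMSO and 85.1 to 99.7 CPM with encorafenib at day 1, and 13.9 to 16.6 and 105 to 119 CPM at day 5, mostly from Col1a1 and Col1a2, and their part in the result was not tested. The markers of mesothelium in the table (3 of 4) were mostly Msln (group means of 530.0 to 3148 CPM), and their sum was 558 to 724 and 1328 to 1523 CPM at day 1 and 497 to 565 and 1535 to 1744 CPM at day 5 in the same groups. In the other lines, mesothelial markers also rose with encorafenib beside the balance, 2 of 3 at each day in NaJa-D (medians 1.15 and 0.91) and 2 and 3 of 3 in NaJa-F (0.48 and 1.21). Of all genes, 23.7% and 18.3% were called higher in NaJa-D (day 1, then day 5) and 17.5% and 9.7% in NaJa-F. Of the fibroblast markers 2 of 4, Col1a1 and Dcn, rose at both days in these lines, where the summed level was 1.24 to 7.54 CPM. The part of these markers in the balance was not tested.

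**Figure D5:**
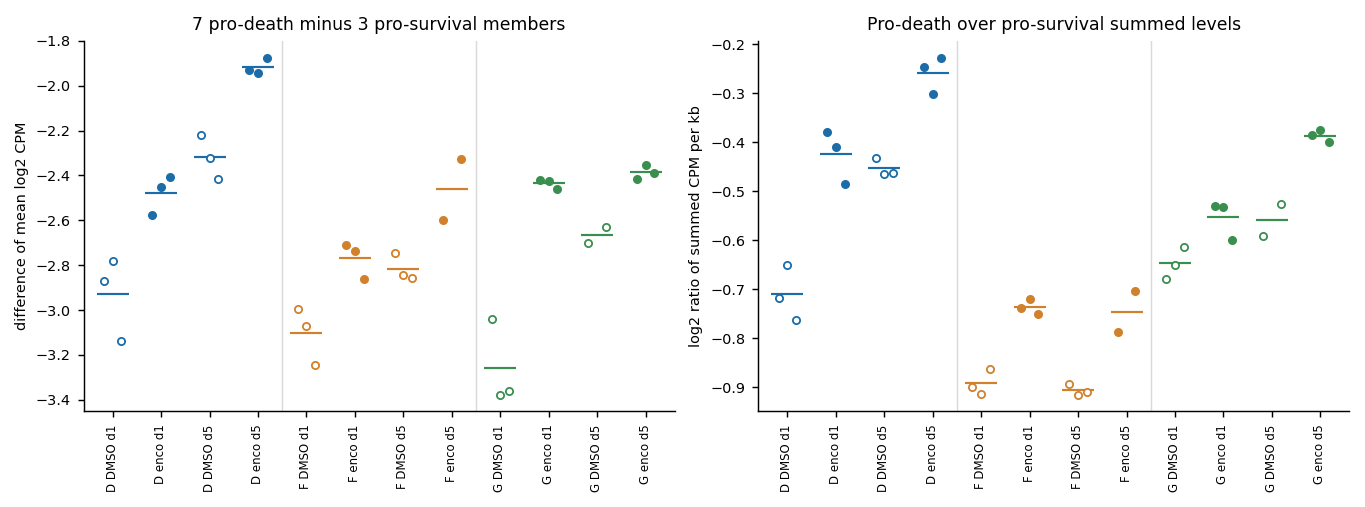
Balance of the members in each library, as the difference of mean log2 CPM between pro-death and pro-survival genes (left) and as the log2 ratio of their summed CPM per kilobase (right), by group (open, DMSO; filled, encorafenib; bar, group mean). On the left the encorafenib groups and the day 5 groups lie above their counterparts in each line, and on the right the NaJa-F DMSO groups lie level, at means of -0.89 and -0.91.

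Members were also compared between lines without the drug, over both days in DMSO, where most genes of the table differed. NaJa-F and NaJa-D differed in 5 of 10 members, where 61.6% of all genes were called in either direction, NaJa-G and NaJa-D in 7 (3 at day 1 alone), where 67.4% were, and NaJa-G and NaJa-F in 8, where 54.4% were. Mcl1 was higher in NaJa-F (0.55, SE 0.03, adjusted p = 7.55e-17) and in NaJa-G (0.66, SE 0.03, adjusted p = 2.34e-18) than in NaJa-D. Pmaip1 was highest in NaJa-F, 0.45 above NaJa-D (adjusted p = 5.28e-10), and lowest in NaJa-G, -0.54 against NaJa-D (adjusted p = 1.05e-10). Bik had the same order, 1.03 above NaJa-D in NaJa-F (adjusted p = 2.55e-06) and -0.87 against it in NaJa-G (adjusted p = 0.000524), though the latter missed the test at day 1 alone (-0.55, adjusted p = 0.109). Bmf was lowest in NaJa-F, where it stood at -1.40 relative to NaJa-D (adjusted p = 9.74e-11), and Bcl2l11 was also lower there (-0.38, adjusted p = 6.2e-07). NaJa-G had more Bcl2l11 than NaJa-D (0.60, adjusted p = 1.37e-10), with 0.10 at day 1 alone (adjusted p = 0.261). NaJa-G also had more Bax than NaJa-D (0.34, adjusted p = 7.18e-07), with 0.09 at day 5 alone (adjusted p = 0.3).

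The size of the drug response was compared between days and lines as a difference of responses. Between days, 1 member differed in NaJa-D (Bmf) where 7.29% of all genes did, none in NaJa-F where 5.88% did, and 4 in NaJa-G (Bmf, Bcl2l11, Mcl1 and Bid) where 31.7% did. These counts lay near the shares of all genes. The Bid difference in NaJa-G (0.25, adjusted p = 0.00711) was lost with library size scaling (adjusted p = 0.0108), with the spread of the compared groups alone (adjusted p = 0.0369) and without any 1 of 10 of the 11 NaJa-G libraries (adjusted p = 0.0119 to 0.0152, and 0.142 without DMSO day 5 replicate 1). Without the library that stood apart, Mcl1 and Bcl2l2 were also called in NaJa-D (0.21 and -0.89, adjusted p = 0.00403 and 0.00348). At day 1, no member differed between NaJa-F and NaJa-D, where 8.79% of all genes did, 4 differed between NaJa-G and NaJa-D, where 36.4% did, and 5 between NaJa-G and NaJa-F, where 33.5% did. The counts against NaJa-D lay near these shares. All of these day 1 differences were larger responses in NaJa-G, for Bmf (1.01 over NaJa-D, adjusted p = 0.000434, and 1.92 over NaJa-F, adjusted p = 3.95e-07), Bcl2l11, Bid and Mcl1 and, over NaJa-F, Pmaip1. The Mcl1 difference from NaJa-D (0.31) was lost with library size scaling (0.18, adjusted p = 0.0179) and with the spread of the compared groups alone (0.24, adjusted p = 0.0117). Without the library that stood apart, 2 members differed between NaJa-F and NaJa-D at day 1, Bmf (-1.01, adjusted p = 0.0018) and Bcl2l2 (-0.94, adjusted p = 0.00147). At day 5 no member differed between NaJa-F and NaJa-D, where 8.85% of all genes did, and 4 differed in both comparisons of NaJa-G, with NaJa-D, where 21.9% did, and with NaJa-F, where 24.2% did. The day 5 responses of Bid and Pmaip1 were larger in NaJa-G than in either line (Bid by 0.81 and 1.00, adjusted p = 1.62e-09 and 7.22e-11), and that of Bmf was lower (-1.36 and -1.33, adjusted p = 1.89e-07 and 1.63e-05). Mcl1 responded less in NaJa-G than in NaJa-D (-0.30, adjusted p = 0.000136, and -0.26 with adjusted p = 0.0206 with the spread of the compared groups alone) and Bcl2l11 less than in NaJa-F (-0.47, adjusted p = 0.00195), the latter lost without NaJa-F encorafenib day 5 replicate 2 (-0.41, adjusted p = 0.015) or NaJa-G DMSO day 5 replicate 1 (-0.33, adjusted p = 0.0339). Where limma called 0 members, those with an unadjusted p under 0.05 were 4 between NaJa-F and NaJa-D at day 1, 4 at day 5, and 1 between the days in NaJa-F, and the calls were 1, 0 and 0 with edgeR and 2, 0 and 0 with DESeq2. The share of all genes with such an unadjusted p is not given here.

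Other genes of the pathway moved in both directions. Of the 15 other family members listed, 10 were in the table (Bcl2a1a, Bcl2a1b, Bcl2a1d, Bcl2l10 and Hrk were not). Of these 10, encorafenib raised 2, 2 and 5 and lowered 1, 2 and 2 at day 1 (lines in the order D, F, G, here and for the lists that follow), and raised 3, 0 and 1 and lowered 3, 1 and 2 at day 5. For comparison with these lists, 23.7%, 17.5% and 35.3% of all genes were called higher at day 1 and 21.2%, 12% and 28.7% lower. At day 5 the shares were 18.3%, 9.7% and 28.5% higher and 14.7%, 8.5% and 24.7% lower. For time in DMSO they were 13.7%, 9.73% and 17.2% higher and 15.3%, 7.01% and 16.8% lower. Bad, a BH3-only gene of growth factor signaling, rose at day 1 in NaJa-D by 0.54 and in NaJa-G by 0.52. Bak1, the other main effector, rose by 0.43 in NaJa-G at day 1 and by 0.44 in NaJa-D at day 5. Bcl2, the founding pro-survival gene, fell in NaJa-D by 0.31 at day 1 and 0.50 at day 5 and rose in NaJa-G by 0.43 at day 5. Over time in DMSO, 2, 2 and 2 of the 10 rose and 0, 1 and 2 fell. Bnip3 and Bnip3l, hypoxia-responsive mitophagy receptors with a BH3-like region, rose with time in all lines (Bnip3 by 1.57, 0.79 and 0.49, Bnip3l by 0.67, 0.32 and 0.41).

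Downstream, all 12 listed genes of the apoptosome, the caspases and their inhibitors were in the table. Encorafenib raised 3, 3 and 4 of them and lowered 4, 3 and 4 at day 1, and raised 3, 2 and 3 and lowered 3, 2 and 2 at day 5. The inhibitor genes moved apart, as Birc3 rose in all 6 drug comparisons by 0.41 to 0.83 and Birc5, which also serves mitosis, fell in all 6 by 0.24 to 1.26. Between the days in DMSO, 2, 2 and 3 of the 12 rose and 2, 2 and 5 fell. Cycs, which encodes cytochrome c, fell with time in every line, by 0.47, 0.34 and 0.75.

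Of 8 listed targets of p53 outside the family, 7 were in the table (Eda2r was not). Encorafenib raised 3, 2 and 5 and lowered 0, 1 and 0 of them at day 1, and raised 3, 1 and 5 and lowered 0, 0 and 1 at day 5. Trp53inp1, an inducer of autophagy and death, rose in all 6 drug comparisons by 0.77 to 2.59 and with time in DMSO by 1.37, 1.21 and 1.89. Of the 7 targets, however, only 2, 1 and 1 rose with time and 0, 0 and 2 fell. Their median log2 fold changes with time were 0.08, -0.03 and -0.09. Of 8 listed regulators of BH3-only transcription, 7 were in the table (Trp73 was not), and encorafenib raised 1, 2 and 3 and lowered 2, 0 and 3 at day 1, and raised 2, 1 and 3 and lowered 1, 1 and 1 at day 5. With time in DMSO, 2, 2 and 2 of the 7 regulators rose and 1, 2 and 4 fell. The part of the regulators in the changes of the members was not tested. Foxo4 rose with time in DMSO in all lines (0.54, 0.33 and 0.42) and in 5 of 6 drug comparisons. Foxo3, a known activator of Bcl2l11 and Bbc3, rose in NaJa-G with encorafenib at day 1 by 0.93 and with time by 0.33, with 0.04 to 0.15 at day 1 in the other lines, which did not pass the test. Ddit3, which encodes the stress factor CHOP, rose in NaJa-G with encorafenib at day 5 by 1.41. Trp53 fell in NaJa-D at day 1, in NaJa-F at day 5 and in NaJa-G on both days, by 0.17, 0.27, 0.68 and 0.37.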

How the data were processed

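RNA of 3 mouse cell lines was sequenced in 34 libraries. The authors trimmed reads with Trimmomatic 0.39 and aligned them with STAR 2.5.2b to GRCm38, per the submitters' processing notes, and deposited raw counts per gene for 14107 genes (smallest summed count 360). How reads were counted, with which annotation and whether by strand is not given in the sources used here.

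Groups came from the titles and symbols from GENCODE M21. All genes were fitted in R 4.3.3 with limma 3.58.1 (voom weights, TMM scaling from edgeR 4.0.16, summed count above 2, 12 group means). A call needed an adjusted p below 0.01. Log2 CPM used a prior count of 2. The 10 members, the gene lists and the tests were chosen with earlier results of these data known. The text names all members, genes of the lists, and for 4 members the 3 genes with the most similar pattern. Replicate numbers showed no strong pairing of the libraries, as deviations of same-numbered libraries correlated at -0.27 to 0.21 over 24 pairs, 3 of them above 0.1. With groups of 2 or 3 libraries, this cannot exclude a weaker pairing. Between replicates the variance was 3.32 to 86.6 times that of counting. The fits were also run on simulated counts with a common mean per gene and few changed genes in a single group. That setting is simpler than these data, and its outcome is not reported here. The alternatives were edgeR, DESeq2 1.42.0, limma-trend (prior count 3), RLE or library size scaling, filterByExpr, no filter, the replicate block, the compared groups alone, each day alone, a threshold of 0.05, a log2 change of 1 or more in size, each library left out and, added after the data were seen, day 1 DMSO as control for day 5. Some genes of the listed pathways are not reported here by name.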

Additional observations from a re-analysis of the deposited data

Results flagged for a closer look

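The results below were picked out because the response to encorafenib differed between days or lines by a test of the difference itself (limma, adjusted p below 0.01). Groups of 2 or 3 libraries are too small for a test of single outlying libraries. All values are differences of log2 fold changes.

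Between the days (day 5 minus day 1), the response of Bmf differed by -1.45 in NaJa-D (adjusted p = 7.01e-06) and by -3.82 in NaJa-G (adjusted p = 3.24e-15). In NaJa-G that of Bcl2l11 differed by -1.82 (adjusted p = 9.56e-14), that of Mcl1 by -0.41 (adjusted p = 1.17e-06) and that of Bid by 0.25 (adjusted p = 0.00711). The response is measured against DMSO cells of the same day, in which Bmf and Bcl2l11 rose with time.

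At day 1, the response of NaJa-G exceeded that of NaJa-D by 1.01 for Bmf, 1.45 for Bcl2l11, 0.48 for Bid and 0.31 for Mcl1 (adjusted p = 0.000434 or lower), and the Mcl1 call was lost with library size scaling (0.18, adjusted p = 0.0179) and with the compared groups alone (0.24, adjusted p = 0.0117). It exceeded that of NaJa-F by 1.92 for Bmf, 1.52 for Bcl2l11, 0.69 for Bid, 0.45 for Pmaip1 and 0.29 for Mcl1 (adjusted p = 7.23e-05 or lower).

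At day 5, NaJa-G minus NaJa-D was -1.36 for Bmf, 0.81 for Bid, 0.48 for Pmaip1 and -0.30 for Mcl1 (adjusted p = 0.00024 or lower), the last lost with the compared groups alone (-0.26, adjusted p = 0.0206). NaJa-G minus NaJa-F was -1.33 for Bmf, -0.47 for Bcl2l11, 1.00 for Bid and 0.77 for Pmaip1 (adjusted p = 0.00195 or lower).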

How the results depend on the processing

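Of 1228 values of the 132 member results under other settings, leaving out single libraries and day 1 DMSO as control set aside, 1180 kept their direction and side of the threshold, 27 lost the call, 5 gained it and 16 changed sign. None of those 16 was a called value. With day 1 DMSO as control for day 5, which changes the question, 17 stayed, 8 gained the call and 5 changed sign, of which 2 were called values (Bmf and Bcl2l11 in NaJa-G). The cause was not tested for any change below. With the replicate block, whose numbers showed no strong pairing of the libraries, 131 of 132 results stayed and 1 was gained, which made 1 member called for the day 1 response in NaJa-F minus NaJa-D in place of 0.

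The signs that changed belonged to Bcl2l2 in NaJa-F, for encorafenib at day 1 (-0.015 with edgeR, -0.0080 with DESeq2, -0.012 with library size scaling) and for time in DMSO (-0.018 with edgeR, -0.023 with DESeq2, -0.0081 with RLE), and to Bcl2l1 for time in NaJa-D (-0.012 with DESeq2, -0.013 with RLE, -0.0019 with the compared groups alone). With library size scaling, encorafenib gave 0.033 for Bcl2l1 in NaJa-D at day 1 and -0.0016 for Mcl1 in NaJa-G at day 5, and time gave 0.072 and 0.067 for Bid and Pmaip1 in NaJa-F and 0.013 for Pmaip1 in NaJa-G. With the compared groups alone, time gave 0.020 and 0.015 for Bid and Pmaip1 in NaJa-F. With day 1 DMSO as control, day 5 encorafenib gave 0.51 for Bcl2l11 in NaJa-D, and 1.52, 1.33, 0.56 and -0.10 for Bmf, Bcl2l11, Bbc3 and Bcl2l1 in NaJa-G, with 8 members called in each of these lines. In NaJa-D more of all genes were called too, as given below.

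Counts of called members moved as follows. The day 1 response in NaJa-F minus NaJa-D had 1 with edgeR, limma-trend or library size scaling, and 2 with DESeq2 or a threshold of 0.05. The change between days in NaJa-D had 2 with DESeq2, limma-trend or 0.05, and the day 5 response in NaJa-F minus NaJa-D had 1 with 0.05. Time in NaJa-D had 8 with library size scaling. With the compared groups alone, encorafenib in NaJa-D at day 1 had 3 and time in NaJa-G had 2, and at day 1 alone NaJa-G against NaJa-D had 3. Requiring a log2 change of 1 or more in size left 2, 1 and 5 for encorafenib at day 1 (lines D, F and G), 1 and 1 at day 5 (D and F), 3, 1 and 2 for time, 2, 0 and 2 for the lines, 2 for the days in NaJa-G, and 2 and 2 at day 1 and 1 and 1 at day 5 for NaJa-G minus NaJa-D or NaJa-F. The shares of all genes under this requirement and at 0.05 are not given here.

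The balance as a ratio of sums was 0.29, 0.19, 0.16, 0.16, 0.094 and 0.17 for encorafenib (NaJa-D, NaJa-F, NaJa-G, each at day 1 and day 5), 0.26, -0.014 and 0.089 for time, and -0.022 and 0.30 for NaJa-G against NaJa-D and NaJa-F. Without Bax the value was 0.48 for NaJa-D at day 5, 1.06 (day 1) and 0.37 (day 5) for NaJa-G, and 0.76 for time in NaJa-G.

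With each library left out in turn, counts of members ran from 0 to 2 for the day 1 response in NaJa-F minus NaJa-D, 1 to 3 for the change between days in NaJa-D, 3 to 5 for time in NaJa-D and 3 to 6 in NaJa-G. Signs changed within these ranges for encorafenib in NaJa-D (at day 1, Bcl2l11 -0.0079 to 0.13 and Bcl2l1 -0.17 to 0.014; at day 5, Bcl2l1 -0.033 to 0.085), in NaJa-F (at day 1, Bcl2l2 -0.11 to 0.22, Bcl2l11 -0.034 to 0.017 and Bbc3 -0.15 to 0.074; at day 5, Bax -0.17 to 0.016 and Bbc3 -0.015 to 0.99) and in NaJa-G at day 5 (Bbc3 -0.36 to 0.31 and Bax -0.32 to 0.023). For time they changed in NaJa-D (Bcl2l1 -0.048 to 0.073, Pmaip1 -0.018 to 0.15), NaJa-F (Bcl2l2 -0.11 to 0.22, Pmaip1 -0.048 to 0.0024, Bid -0.033 to 0.010) and NaJa-G (Pmaip1 -0.14 to 0.044). Depth limits Bik most, at 8 to 162 reads a library.

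Over all genes, counts differed by over 1.5 times for the day 1 response in NaJa-F minus NaJa-D (1240, 2143 with DESeq2, 415 with the compared groups alone, and 3937 when replicate 3 of NaJa-D encorafenib day 1 was left out), the change between days in NaJa-D (1029, 261 and, without that library, 3104), encorafenib in NaJa-D at day 1 (6335, 3546 with the compared groups alone), time in NaJa-G (4804, 1182) and, with day 1 DMSO as control, day 5 encorafenib in NaJa-D (4651, 7478) and NaJa-F (2567, 5069). With library size scaling the median of all genes was 0.11 for encorafenib in NaJa-D at day 1, 0.18 for time in NaJa-D, and 0.14 and 0.13 for NaJa-F and NaJa-G against NaJa-D, and the share of calls that were higher was 81.7% in place of 47.4% for time in NaJa-D, 78.6% in place of 58.1% in NaJa-F and 62.4% in place of 50.6% in NaJa-G.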

Other observations

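Among 10255 genes with a mean log2 CPM of 2 or more, the genes whose 12 group means ran most like those of a member were listed for 4 members, as a description in which points share lines, days and controls. For Bcl2l11 they were Tiparp (Pearson's r 0.958), Mat2b (0.943) and Megf9 (0.94). For Bmf they were Nbr1, an autophagy receptor (0.969), Idh1 (0.957) and Tm7sf2 (0.944). For Mcl1 they were Plgrkt (0.971), Usp46 (0.968) and Snx4 (0.962), and for Bcl2l2 Stx17 (0.914), Atat1 (0.904) and Wdr47 (0.90).

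Bcl2l14, a poorly understood family gene, moved in opposite directions between the lines. It rose with encorafenib in NaJa-D by 1.47 at day 1 and 1.06 at day 5, and the values were -1.34 and -2.03 for NaJa-F, and -1.77 and -1.47 for NaJa-G (limma, all called at an adjusted p below 0.01). For Bcl2l14 the response minus that in NaJa-D was -2.81 (NaJa-F, adjusted p = 1.08e-06) and -3.24 (NaJa-G, adjusted p = 1.38e-09) at day 1, and -3.09 (NaJa-F, adjusted p = 6.11e-07) and -2.53 (NaJa-G, adjusted p = 7.79e-07) at day 5, by limma, while the response in NaJa-G minus that in NaJa-F missed the threshold at both days (-0.43 and 0.56, adjusted p = 0.35 and 0.352).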
